A study of Mus musculus with 6 samples.

Results

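The genes that drive DNA replication and cell division were examined by RNA sequencing of cells sorted from mouse microglia cultured together with peritoneal macrophages. The list was fixed by name and holds 41 genes, all of which were found among the 21399 gene symbols listed for each library. It covers the assembly of replication origins, nucleotide supply, the G1 to S switch, the D-type cyclins, the inhibitors of cyclin-dependent kinases and the machinery of mitosis. There were 3 libraries labelled KO and 3 labelled WT. In the KO group, microglia of CD45.2 KO mice went through oxygen-glucose deprivation (OGD, a cell model of ischaemia) and reoxygenation and shared the culture with CD45.1 peritoneal macrophages; in the WT group the microglia came from CD45.2 WT mice. The deprivation, the reoxygenation and the added CD45.1 macrophages were thus shared by both groups, and only the microglia differed in genotype. The labels do not name the deleted allele, the driver of a deletion, the age or the sex of the animals, or the length of culture, and the series title names PPARα. The sequenced cells were sorted by CD45.1, which the design text assigns to the macrophages while calling the sorted cells microglia. Nothing in the labels tells whether replicates are different cultures or animals; a p-value here therefore reflects the spread among libraries alone, and that spread may be technical.

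As background, a cell that is to copy its DNA first loads the MCM helicase, built from Mcm2 to Mcm7, onto origins with the help of Cdc6 and Cdt1. Cyclin D with CDK4 or CDK6 and then cyclin E with CDK2 release the E2F factors from the retinoblastoma protein, and E2F switches on the replication genes. Cyclin A, cyclin B and CDK1 then drive mitosis, whose genes are switched on late through CHR and CCAAT elements in their promoters. CDK inhibitors such as p21 (Cdkn1a) and p27 (Cdkn1b) hold cells back. Resident peritoneal macrophages can divide in tissue, whereas resting B cells are largely outside the cycle.

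Some facts of the libraries bear on every value below. The reads recovered from the deposited values summed to between 35289937 and 38092819 in the libraries labelled KO and to between 34542822 and 36727607 in those labelled WT. Ppara held 10 to 23 reads in the libraries labelled KO and 1 to 11 in those labelled WT, so the gene named in the title was not lower in the KO group and directions are given by label only. Summed over 10 core macrophage markers, levels were 4657 to 10709 FPKM in the libraries labelled KO and 1384 to 3717 FPKM in those labelled WT, and the 18 peritoneal macrophage markers summed to 6880 to 14579 and 1656 to 5782 FPKM. Much of each peritoneal sum was Saa3, at 10715, 6016 and 4090 FPKM in KO and 1775, 4271 and 1120 FPKM in WT, with overlap. FPKM are fragments per kilobase of transcript, divided by the depth of the library, a scale on which levels of different genes can be compared. The 10 B cell markers summed to 4443 to 4835 FPKM in KO and 5031 to 5734 FPKM in WT, and the 11 T and NK cell markers to 345 to 385 and 378 to 471 FPKM. Of the 11 microglia markers measured, 5 averaged 1 FPKM or more, and the microglial genes P2ry12 and Sall1 averaged 0.631 and 0.033 FPKM over the 6 libraries. Plasma cell markers summed to 427 to 471 FPKM in KO and 470 to 504 FPKM in WT, and erythroid markers to 0.0503 to 2.03 and 0.19 to 2.21 FPKM. The 5 neutrophil markers measured summed to 7.96 to 9.27 FPKM in KO and 1.16 to 8.39 FPKM in WT. Most of that sum was S100a8, at 8.44, 7.83 and 8.04 FPKM in KO and 2.39, 7.58 and 0.733 FPKM in WT. S100a9 averaged 0.0086 FPKM over the 6 libraries. In bulk RNA, fewer cells of a type and less RNA per cell cannot be told apart.

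**Figure D1:**
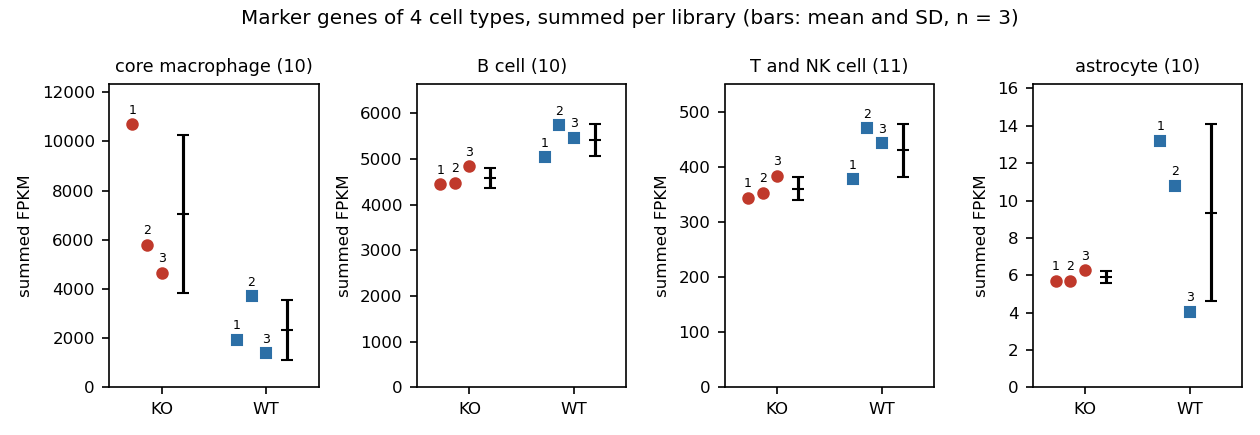
Summed FPKM of marker genes of 4 cell types in each library, with KO left of WT; numbers are replicates and bars the mean and SD of 3 libraries. The core macrophage sums do not overlap between the groups (4657 to 10709 in KO and 1384 to 3717 in WT), nor do the B cell sums, while the astrocyte sums range from 5.70 to 6.26 in KO and from 4.05 to 13.2 in WT.

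Member promoters with E2F, CHR or CCAAT elements are shown because replication and mitotic genes are known to be switched on through different elements. The part of these elements in the levels given below was not tested. RefSeq promoters (GRCm38.p6, the assembly of mm10) were matched for 33 of the 41 members by symbol, each 250 bases before and 50 after a gene's start. The sequences are the 250 bases before the start, 5′ to 3′ on the gene's strand, with capitals marking E2F elements (TTTCCCGC, TTTGGCGC, TTTCGCGC or TTTGGCGG), the CHR element (TTTGAA) and CCAAT boxes (CCAAT), each on either strand.
Mcm6 (chr1:128359706-128359955, minus strand): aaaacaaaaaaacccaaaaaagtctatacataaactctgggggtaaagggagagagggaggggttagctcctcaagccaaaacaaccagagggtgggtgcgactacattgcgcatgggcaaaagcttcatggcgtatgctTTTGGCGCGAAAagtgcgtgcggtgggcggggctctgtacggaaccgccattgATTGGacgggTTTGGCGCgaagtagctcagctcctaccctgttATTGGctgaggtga
Mcm5 (chr8:75109259-75109508, plus strand): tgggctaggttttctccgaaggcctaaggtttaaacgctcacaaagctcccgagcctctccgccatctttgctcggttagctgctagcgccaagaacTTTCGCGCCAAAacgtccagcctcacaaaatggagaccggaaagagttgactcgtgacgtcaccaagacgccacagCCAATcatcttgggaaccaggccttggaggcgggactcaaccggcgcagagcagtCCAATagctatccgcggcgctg
Ccnb2 (chr9:70421555-70421804, minus strand): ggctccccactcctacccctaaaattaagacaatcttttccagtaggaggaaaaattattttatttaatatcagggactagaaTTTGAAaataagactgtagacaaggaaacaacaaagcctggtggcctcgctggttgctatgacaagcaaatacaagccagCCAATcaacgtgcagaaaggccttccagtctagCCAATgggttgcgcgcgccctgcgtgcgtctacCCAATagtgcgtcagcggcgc
Mki67 (chr7:135716380-135716629, minus strand): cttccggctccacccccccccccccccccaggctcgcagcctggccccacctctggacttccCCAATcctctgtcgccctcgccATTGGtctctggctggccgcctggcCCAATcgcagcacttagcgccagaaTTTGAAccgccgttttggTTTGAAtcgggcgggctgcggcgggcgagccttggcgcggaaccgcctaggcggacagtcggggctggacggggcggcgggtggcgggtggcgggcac

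The Mcm6 and Mcm5 stretches hold E2F elements beside CCAAT boxes, and in both an E2F element overlaps another on the opposite strand, which the letters of these elements allow. The Ccnb2 stretch holds 1 CHR element and the Mki67 stretch 2, with 3 CCAAT boxes each and no E2F element. Another CHR element of Ccnb2 lies after the start, at offset 4, outside the bases shown. Over the whole 300-base windows, an E2F element was found in 6 of the 7 origin licensing genes with a promoter (Cdc6, Cdt1, Mcm3, Mcm5, Mcm6 and Mcm7), in 1 of 13 mitotic genes (Cdk1) and in none of the 13 other members, against 2.7% of 27025 genes. A CHR element was found in 10 of the 13 mitotic genes, in 1 licensing gene (Mcm2) and in none of the others, against 20.2% of all genes. CCAAT boxes were in 12 of the 13 mitotic genes and 5 of the 7 licensing genes, against 41.1% of all genes. Neither listed start of Cdkn1a had a match to any of the 3, which says only that these letters are not in those windows. The same limit holds for every member without a match. Windows followed RefSeq starts, which can differ from those of GENCODE. The E2f1 window (chr2:154569427-154569676, minus strand) lies inside the gene as GENCODE places it (chr2:154559407-154569892), so bases before that start were not searched.

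Most origin licensing genes stood well above 1 FPKM in all 6 libraries, with Cdc6 far below and Gins2 just above it, and the mitotic genes were mostly near or below 1 FPKM. The median of the 9 licensing genes was 12.1 to 12.5 FPKM in the libraries labelled KO and 12.4 to 13.9 FPKM in those labelled WT. The median of the 16 mitotic genes was 0.865 to 0.946 FPKM in KO and 0.765 to 0.946 FPKM in WT. Within a library the licensing median was thus 13.7, 12.8 and 14.5 times the mitotic median in KO replicates 1 to 3, and 13.4, 18.2 and 13.9 times in WT replicates 1 to 3. The gap stood in every library, and the ranges of the groups overlapped. For all 21399 genes the median lay between 0.921 and 1.03 FPKM, so the mitotic genes stood at about the level of the middle gene of the table.

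**Figure D2:**
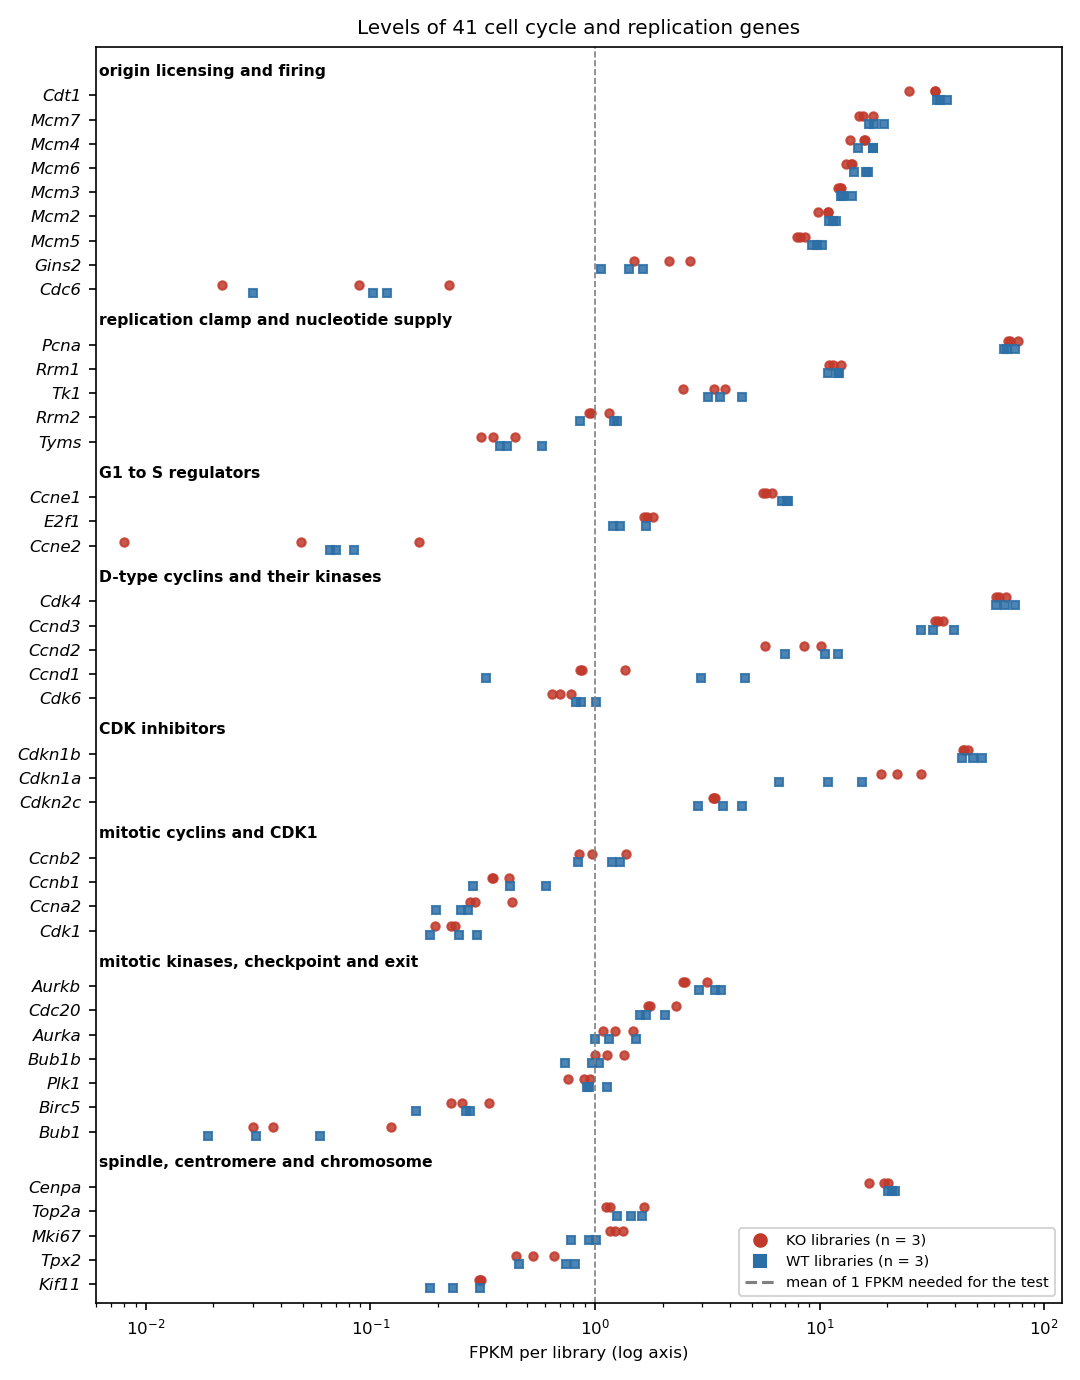
FPKM of the 41 members in each library on a log axis, grouped by role, with red circles for the 3 KO libraries above blue squares for the 3 WT libraries; the dashed line marks the mean of 1 FPKM that a gene needed to be tested. Pcna and Cdk4 stand highest (means 70.6 and 65.6 FPKM), most mitotic genes lie near or left of the line, and the 2 groups lie close together for all but a few genes.

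No member passed the test between the groups. Of the 41, 29 averaged 1 FPKM or more across the 6 libraries and were tested with limma on log2(FPKM + 1), and 0 were called at an adjusted p of 0.05, where 0.028% of the 10732 genes tested were called (3 genes, all higher in KO). At an unadjusted limma p under 0.05 stood 1 member higher in KO, Cdkn1a, against 8.86% of all genes tested, and 2 lower, Mcm5 and Ccne1, against 8.21%; in either direction 17.1% of all genes tested stood there. The libraries labelled KO all lay below those labelled WT for 6 of the 29 members (20.7%), where 15.2% of all genes tested did so, and all above for 2 (6.9%), where 9.75% did, so that 8 of the 29 (27.6%) did not overlap in one direction or the other, beside 24.9% of all genes tested. The log2 fold change was negative for 20 of the 29 (69%), beside 64.6% of all genes tested, with medians of -0.08 for the members and -0.06 for all genes. These shares lie near those of the whole table. The tested members lay between a log2 fold change of -0.62 (Ccnd1) and 1.05 (Cdkn1a), and for 27 of the 29 the 95% interval of the log2 fold change stayed within 1 either way, a doubling or halving on this scale; Ccnd1 and Cdkn1a were the exceptions. Mki67 and Bub1b reached the 1 FPKM filter only through the KO group.

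**Figure D3:**
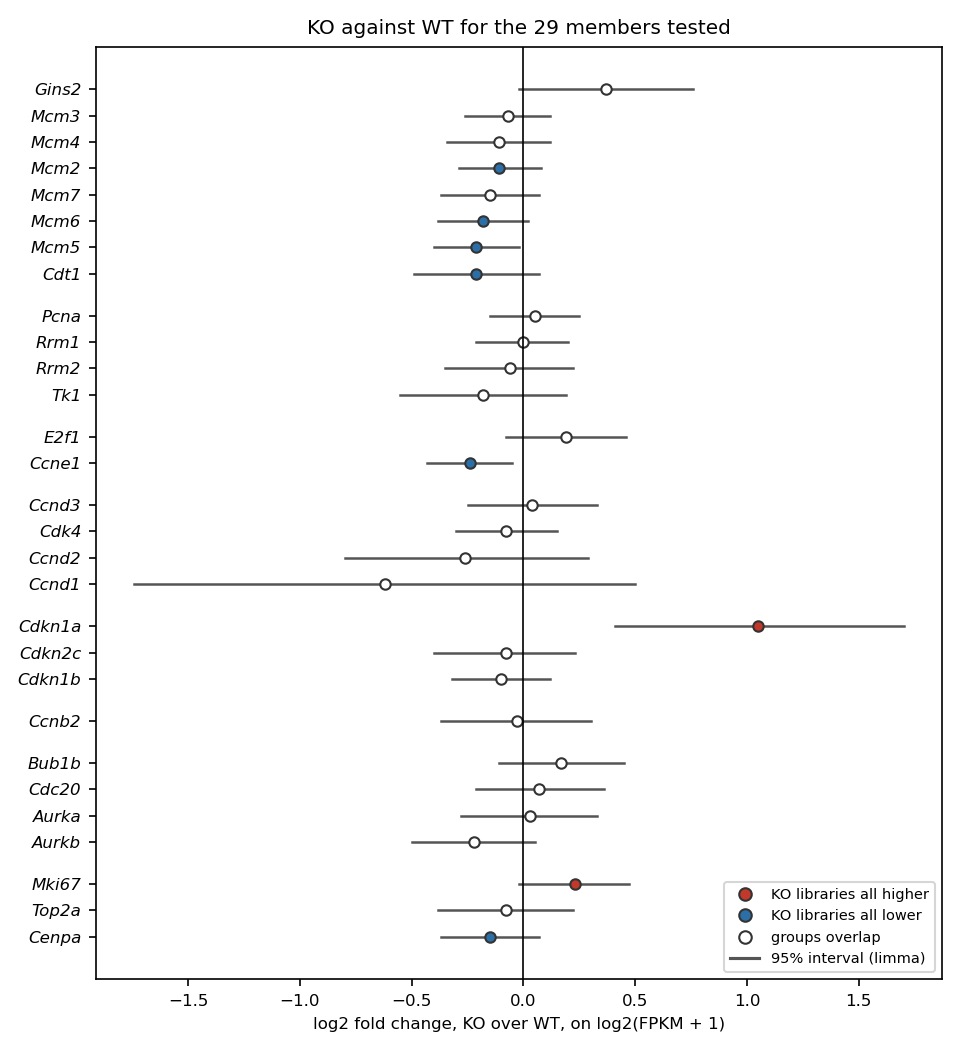
Log2 fold change of KO over WT on log2(FPKM + 1) for the 29 members tested, in the order of roles used in the plot of levels, with 95% intervals from limma; filled points mark members whose groups do not overlap. Cdkn1a stands apart at 1.05 (0.41 to 1.70), Ccnd1 has the widest interval (-1.74 to 0.50), and the MCM genes lie slightly left of 0.

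Among the licensing genes, the 6 MCM subunits were within a narrow band and all had negative log2 fold changes, as 64.6% of all genes tested did. Their signs stayed negative under the 3 other scalings. With median-of-ratios scaling Mcm3 came closest to 0 at -0.01, and the median of all genes tested was also -0.01. Mcm5, which had the lowest p of the group, stood at 7.94, 8.61 and 8.17 FPKM in the libraries labelled KO, against 9.22, 9.70 and 10.2 FPKM in those labelled WT. The groups did not overlap, but the difference did not pass the test (log2 fold change -0.21, SE 0.08, limma adjusted p = 0.25). Mcm6 averaged 13.6 ± 0.419 FPKM in KO and 15.6 ± 1.22 FPKM in WT, and Mcm2 10.6 ± 0.581 and 11.4 ± 0.389 FPKM (SD, n = 3), both without overlap. Of all genes tested, 15.2% were lower in every KO library. Mcm3, Mcm4 and Mcm7 overlapped between the groups, at means of 12.3, 15.1 and 15.9 FPKM in KO and 13, 16.4 and 17.8 FPKM in WT. The median log2 fold change of the 8 licensing genes tested was -0.13; the 10 B cell markers all had negative fold changes too, with a median of -0.22, and their part in the MCM values was not tested.

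The MCM loader Cdt1, which geminin holds in check outside G1, was the highest of the licensing genes. It stood at 25.0, 32.8 and 32.7 FPKM in the libraries labelled KO, against 33.3, 36.9 and 34.2 FPKM in those labelled WT. KO replicate 1 was the lowest and the other KO libraries lay just under the WT range (log2 fold change -0.21, SE 0.12, limma adjusted p = 0.42). Its partner Cdc6, which is made anew as cells enter the cycle, held only 4, 16 and 38 reads in KO and 18, 21 and 5 reads in WT, or means of 0.111 and 0.084 FPKM. The level of Cdt1 was thus far from that of Cdc6 in every library. Gins2, a subunit of the GINS complex that activates the loaded helicase, averaged 2.09 ± 0.574 FPKM in KO and 1.37 ± 0.292 FPKM in WT (SD, n = 3), with overlap (limma adjusted p = 0.31). The annotation places a protein-coding gene, Gm20388, over Cdt1 on the same strand, where a strand setting alone could not separate the reads. Over Gins2 it places Gm20388 and Gse1, both protein-coding, on the opposite strand. Reads of Gins2 cannot be told apart from theirs without a stated strand setting.

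Pcna, the sliding clamp of DNA polymerases that also serves DNA repair, was the highest member, above 96.3% of all genes by mean level. It stood at 76.1, 69.2 and 70.2 FPKM in the libraries labelled KO, against 65.9, 74.0 and 68.4 FPKM in those labelled WT. The groups overlapped, and the 95% interval of the log2 fold change ran from -0.15 to 0.25 (limma adjusted p = 0.79). Pcna has processed pseudogenes in the annotation, and reads shared with them make its level uncertain. The large subunit of ribonucleotide reductase, Rrm1, averaged 11.7 FPKM in both groups, with SDs of 0.787 in KO and 0.717 in WT (n = 3). Its small subunit Rrm2, which cells make in S phase, averaged only 1.02 ± 0.115 FPKM in KO and 1.11 ± 0.221 FPKM in WT. Rrm1 was accordingly 10.9 to 12.2 times as high as Rrm2 in KO libraries and 8.69 to 14.2 times in WT libraries.

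The enzymes that supply thymidine nucleotides stood at different levels. Tk1, thymidine kinase, had the lowest p of the nucleotide group and stood at 2.46, 3.40 and 3.79 FPKM in the libraries labelled KO, against 3.17, 3.60 and 4.51 FPKM in those labelled WT. The groups overlapped (log2 fold change -0.18, SE 0.16, limma adjusted p = 0.59). Tyms, thymidylate synthase, stayed under the filter at means of 0.367 FPKM in KO and 0.455 FPKM in WT, with 69 to 100 reads and 81 to 128 reads per library.

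Of the G1 to S regulators, cyclin E1 was the one whose groups separated. Ccne1, which partners CDK2 at the start of S phase, stood at 5.58, 5.80 and 6.11 FPKM in the libraries labelled KO, against 6.77, 7.21 and 7.14 FPKM in those labelled WT. All 3 KO libraries were lower, by a small margin, and the difference did not pass (log2 fold change -0.24, SE 0.08, limma adjusted p = 0.22). Its paralogue Ccne2 held 1, 6 and 19 reads in KO and 10, 8 and 8 reads in WT, and the groups overlapped. E2f1, the activator of S phase genes, averaged 1.72 ± 0.0862 FPKM in KO and 1.39 ± 0.264 FPKM in WT (SD, n = 3), with overlap (limma adjusted p = 0.44).

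The D-type cyclins, which link outside signals to the cycle, were expressed in the order Ccnd3, Ccnd2, Ccnd1, and their spread differed widely. Ccnd3, a form that lymphocytes use, stood at 35.6, 33.5 and 32.7 FPKM in the libraries labelled KO, against 32.1, 39.5 and 28.4 FPKM in those labelled WT. The KO values fell inside the WT range (95% interval of the log2 fold change -0.25 to 0.33). Ccnd2 stood at 5.71, 8.51 and 10.1 FPKM in KO, against 12.1, 10.6 and 7.02 FPKM in WT. Its groups overlapped as well, and the difference was smaller than the spread between libraries (log2 fold change -0.26, SE 0.23, limma adjusted p = 0.59).

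Relative to its mean, Ccnd1 was the most variable member among the WT libraries. It stood at 0.871, 0.857 and 1.36 FPKM (126, 121 and 182 reads) in the libraries labelled KO, against 4.66, 2.95 and 0.328 FPKM (638, 411 and 43 reads) in those labelled WT. WT replicates 1 and 2 lay above every KO library and WT replicate 3 below every one, and the group means were 1.03 ± 0.286 FPKM in KO and 2.65 ± 2.18 FPKM in WT (SD, n = 3). The log2 fold change was -0.62 (SE 0.48, limma adjusted p = 0.55), and it was -0.18 without WT replicate 1 and -1.23 without WT replicate 3. In single libraries Ccnd3 exceeded Ccnd1 by 24.1 to 40.8 times in KO and by 6.89 to 86.5 times in WT. Ccnd1 overlaps a protein-coding gene, LTO1, on the opposite strand. Astrocyte markers, a list of 10 genes added after these values were seen, had sums in a like order among the WT libraries. The sums were 5.71, 5.70 and 6.26 FPKM in KO and 13.2, 10.8 and 4.05 FPKM in WT. Aldoc alone stood at 4.44, 4.25 and 2.91 FPKM in WT. Gfap, the astrocyte filament gene, stood at 0.218, 0.0971 and 0.0758 FPKM in KO, against 2.69, 2.69 and 0.00387 FPKM in WT. Single markers differed in order, with S100b at 0.464, 0.179 and 0.848 FPKM and Gja1 at 0.755, 1.63 and 0.0717 FPKM in WT. Of the 10 markers, 6 were highest in WT replicate 1, 3 in WT replicate 2 and 1 in WT replicate 3. Of the 10, 2 reached the filter, and their part in the Ccnd1 values was not tested. Fibroblast markers, a list of 10 genes added in the same way, summed to 3.98, 12.8 and 38.6 FPKM in KO and to 3.40, 23.4 and 1.11 FPKM in WT.

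The kinases that the D-type cyclins activate were unequal. Cdk4 stood at 67.3, 61.0 and 63.0 FPKM in the libraries labelled KO, against 61.1, 74.1 and 67.0 FPKM in those labelled WT, above 95.9% of all genes. The groups overlapped (log2 fold change -0.08, SE 0.10, limma adjusted p = 0.71). Cdk6 stood under the filter at means of 0.708 ± 0.071 FPKM in KO and 0.902 ± 0.0975 FPKM in WT (SD, n = 3). Its KO libraries all lay lower, with an exact two-sided permutation p = 0.1, the smallest that 3 against 3 allows. Cdk4 overlaps a protein-coding gene, Tspan31, on the opposite strand.

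**Figure D4:**
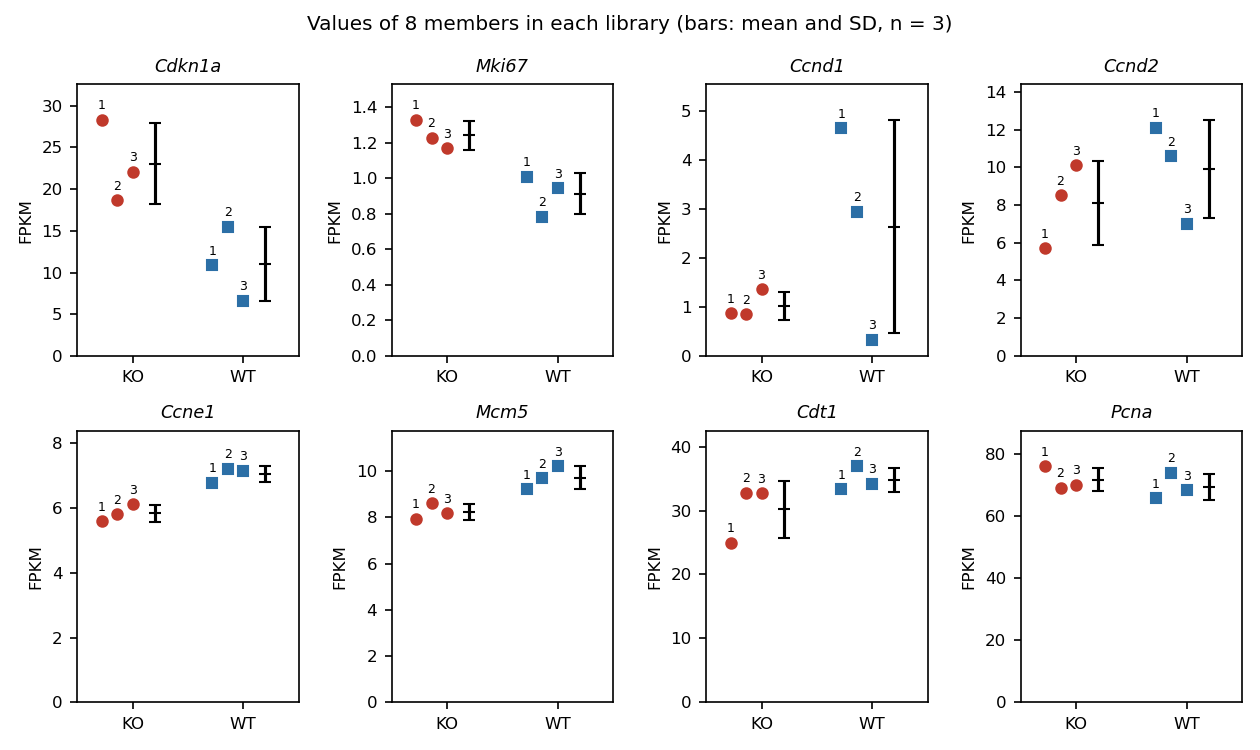
FPKM of 8 members in each library, with KO left of WT on axes that start at 0; numbers are replicates and bars the mean and SD of 3 libraries. Cdkn1a and Mki67 were higher in every KO library, Ccne1, Mcm5 and Cdt1 lower in every KO library, Ccnd1 spread from 0.328 to 4.66 FPKM among the WT libraries, and Pcna and Ccnd2 overlapped.

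The CDK inhibitor p21 had the largest log2 fold change in size among the members tested, on log2(FPKM + 1); by the ratio of means Ccnd1 differed more, at 0.389 in KO over WT, with overlapping groups, and without WT replicate 3 the log2 fold changes were 0.76 for Cdkn1a and -1.23 for Ccnd1. Cdkn1a, which p53 and other signals induce and which halts CDK2, stood at 28.3, 18.7 and 22.1 FPKM in the libraries labelled KO, against 10.9, 15.5 and 6.61 FPKM in those labelled WT. Every KO library lay above every WT library, with means of 23.0 ± 4.87 FPKM in KO and 11 ± 4.44 FPKM in WT (SD, n = 3), 2.09 times as high. The log2 fold change was 1.05 (SE 0.28, unadjusted p = 0.0059) and it did not pass over all genes tested (limma adjusted p = 0.14). The call turned on the setting: Cdkn1a passed without WT replicate 2 (adjusted p = 0.024) and with array weights (adjusted p = 0.035), and over all settings the adjusted p ran from 0.024 to 0.43. The core macrophage markers had sums of 10709, 5797 and 4657 FPKM in KO replicates 1 to 3 and 1945, 3717 and 1384 FPKM in WT replicates 1 to 3. Within each group the library with the highest sum was also the highest in Cdkn1a. Of KO replicates 2 and 3, replicate 2 had the higher sum and replicate 3 the higher Cdkn1a, while the whole WT order matched. Much of each sum was Lyz2, at 8717, 4441 and 3548 FPKM in KO and 1352, 2947 and 979 FPKM in WT. The part of macrophage content in the Cdkn1a difference was not tested.

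The p27 gene, Cdkn1b, which keeps resting cells out of S phase, was the highest inhibitor among the members and showed no such separation. It stood at 45.8, 43.6 and 43.9 FPKM in the libraries labelled KO, against 48.2, 42.9 and 52.9 FPKM in those labelled WT (log2 fold change -0.10, SE 0.09, limma adjusted p = 0.60). Cdkn1b exceeded Cdkn1a by 1.62, 2.34 and 1.99 times in KO and by 4.44, 2.77 and 8 times in WT. Cdkn2c, which encodes the CDK4 and CDK6 inhibitor p18, averaged 3.38 ± 0.0355 FPKM in KO and 3.69 ± 0.816 FPKM in WT (SD, n = 3), with overlap.

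The INK4 and CIP/KIP inhibitors outside the members included a pair with higher values in KO. Cdkn2b, encoding p15, stood at 3.48, 2.36 and 2.26 FPKM in the libraries labelled KO, against 1.54, 1.80 and 1.05 FPKM in those labelled WT. Its neighbour Cdkn2a, encoding p16 and p19Arf, stood at 2.16, 1.39 and 1.02 FPKM in KO, against 0.582, 0.999 and 0.253 FPKM in WT, and reached the filter only through the KO group. Both were higher in every KO library and neither passed (log2 fold changes 0.58, SE 0.17, and 0.65, SE 0.22; limma adjusted p = 0.17 and 0.22). Cdkn2d, encoding p19Ink4d, was the most abundant inhibitor at 65.4 ± 1.87 FPKM in KO and 67.9 ± 6.49 FPKM in WT, with overlap. Cdkn1c stayed under 1 FPKM on average.

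Of the mitotic cyclins, only Ccnb2 reached the filter. Ccnb2, encoding cyclin B2, stood at 0.846, 1.37 and 0.968 FPKM in the libraries labelled KO, against 1.29, 1.19 and 0.839 FPKM in those labelled WT (log2 fold change -0.03, SE 0.14, limma adjusted p = 0.92). The groups overlapped throughout. Ccnb1 held 29 to 36 reads per library in KO and 23 to 51 in WT, and Cdk1, the kinase of both cyclins, 30 to 39 and 28 to 47. Ccna2, encoding cyclin A2, held 55, 35 and 35 reads in KO and 31, 34 and 23 reads in WT. Its FPKM were higher in every KO library, by a narrow margin, with an exact two-sided permutation p = 0.1, the smallest that 3 against 3 allows. WT replicate 3 was the lowest library for all 4 genes of this group, for Ccnb2 only by 0.839 against 0.846 FPKM. It was the lowest for 2 of the 7 mitotic kinase, checkpoint and exit genes. Among all 21399 genes it was the lowest for 3136, with ties counted for an earlier library.

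The kinases and checkpoint genes of mitosis showed no separation. Aurkb, the kinase of the chromosomal passenger complex, was the highest and stood at 2.47, 3.15 and 2.51 FPKM in the libraries labelled KO, against 3.65, 3.43 and 2.9 FPKM in those labelled WT. KO replicate 2 lay inside the WT range (log2 fold change -0.22, SE 0.12, limma adjusted p = 0.38). Cdc20, which activates the anaphase-promoting complex, averaged 1.92 and 1.77 FPKM in KO and WT, Aurka, a spindle pole kinase, 1.26 and 1.22 FPKM, and the checkpoint kinase gene Bub1b 1.16 and 0.915 FPKM. Plk1, Birc5 (survivin) and Bub1 stayed under the filter, with means of 0.869, 0.273 and 0.0632 FPKM in KO and 0.996, 0.234 and 0.0365 FPKM in WT.

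Mki67, whose protein Ki-67 coats mitotic chromosomes and is the usual marker of cycling cells, was slightly higher in the libraries labelled KO. It stood at 1.33, 1.23 and 1.17 FPKM (522, 473 and 426 reads) in KO, against 1.01, 0.785 and 0.944 FPKM (377, 298 and 337 reads) in WT. The groups did not overlap and the difference did not pass (log2 fold change 0.23, SE 0.10, limma adjusted p = 0.32); on this scale, with 1 FPKM added, the ratio of the means, 1.36, is understated, and voom on the recovered reads gave a log2 fold change of 0.45 (limma adjusted p = 0.18). Top2a, the topoisomerase that untangles chromosomes and is another marker of cycling cells, did not follow it. It stood at 1.12, 1.17 and 1.66 FPKM in KO, against 1.62, 1.25 and 1.45 FPKM in WT, and the groups overlapped (log2 fold change -0.08, SE 0.13, limma adjusted p = 0.78). Pcna was 56.2 to 60.1 times as high as Mki67 in KO libraries and 65.1 to 94.3 times in WT libraries.

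Cenpa, the histone H3 variant of centromeres, stood far above the other mitotic members. It stood at 16.6, 19.4 and 20.1 FPKM in the libraries labelled KO, against 20.9, 20.2 and 21.6 FPKM in those labelled WT. The KO libraries were all lower, the closest pair differing by little (log2 fold change -0.15, SE 0.09, limma adjusted p = 0.45). The spindle motor Kif11 and the spindle assembly factor Tpx2 stayed under the filter, at means of 0.308 and 0.544 FPKM in KO and 0.241 and 0.673 FPKM in WT. Of the 12 members under the filter, which held 1 to 426 reads per library, Cdk6 and Ccna2 were those whose groups did not overlap, and none was at 0 in any library.

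Other genes of the same pathways, taken from lists written out by name, were read in the same fit, in which 64.6% of all genes tested had negative fold changes (median -0.06) and, at an unadjusted limma p under 0.05, 8.86% were higher and 8.21% lower. Of 40 further S phase and replication genes, 28 were tested and 0 passed in either direction; 23 had negative fold changes (median -0.12), and at an unadjusted limma p under 0.05 there were 0 higher and 4 lower. Rfc2, a subunit of the clamp loader, averaged 45.7 ± 1.95 FPKM in KO and 55.8 ± 4.29 FPKM in WT, and Pold1, the catalytic subunit of DNA polymerase delta, 22.0 ± 0.893 and 26.7 ± 2.61 FPKM (SD, n = 3; limma adjusted p = 0.19 and 0.23). Of 50 further G2 and mitosis genes, 20 were tested and 0 passed; 16 were negative (median -0.17), with 0 higher and 3 lower at an unadjusted p under 0.05. The condensin gene Smc4 averaged 12.6 ± 2.27 FPKM in KO and 16.4 ± 1.58 FPKM in WT, and the phosphatase gene Cdc25b 25.4 ± 2.16 and 31.9 ± 4.96 FPKM (limma adjusted p = 0.25 and 0.27). The libraries labelled KO all lay below those labelled WT for 9 of the 28 and 4 of the 20, where 15.2% of all genes tested did.

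Of 26 further G1 and checkpoint regulators, 19 were tested and 0 passed, with a median of -0.09. At an unadjusted limma p under 0.05 there were 2 higher (Cdkn2a and Cdkn2b, above) and 0 lower, where 8.86% and 8.21% of all genes tested stood. The KO libraries all lay below the WT libraries for 4 of the 19 and above for 2, where 15.2% and 9.75% of all genes tested did. Trp53, encoding p53, was among the 4, at 41 ± 1.02 FPKM in KO and 48 ± 5.87 FPKM in WT (SD, n = 3, limma adjusted p = 0.33). Of 16 p53 target genes, 13 were tested and 0 passed, with 5 positive and 8 negative fold changes and a median of -0.03. Fas, a death receptor, averaged 4.37 ± 0.0958 FPKM in KO and 3.66 ± 0.033 FPKM in WT, and Btg2, an antiproliferative gene, 106 ± 1.62 and 121 ± 4.90 FPKM (SD, n = 3; limma adjusted p = 0.26 and 0.28). The part of p53 in the Cdkn1a values was not tested.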

How the data were processed

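RNA was sequenced in 6 mouse libraries, 3 titled KO and 3 titled WT, from total RNA extracted with TRIzol and made into libraries with the VAHTS Universal V6 kit, per the labels' protocols. The deposited values are FPKM made by the authors, 1 table of 21399 symbols per library, on mm10 according to the submitters' processing notes. Aligner, counter, annotation and strand setting: not given in the sources used here. Therefore reads of overlapping genes (10 members overlap a protein-coding gene) or of pseudogenes (5 members have named ones) cannot be told apart.

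Members and lists were chosen with earlier results of these data known. The 10732 genes averaging 1 FPKM or more were tested on log2(FPKM + 1), unscaled, by limma 3.58.1 under R 4.3.3 (moderated with a trend, Benjamini-Hochberg over all genes tested, 0.05); a fold change on this scale understates that of low genes. Members under the filter got exact permutation tests. Values in every library are given for the members with the highest mean and the lowest p of each role group and for Mki67, Top2a, Pcna, Ccnd1, Ccnd2, Ccnd3, Cdkn1a and Cdkn1b, 16 in all, and the text names the 2 lowest p of each other list. Whole reads were recovered from the FPKM steps: for 15318 of 15318 genes above 0 in every library they were whole within 0.002 reads; a factor common to a gene's 6 counts cannot be seen. The main fit did not pair libraries by replicate number, since the labels do not tell whether the numbers mark pairs. Alternatives were pseudocounts of 0.1 and 5, no filter and one at 5 FPKM, 3 other scalings, no trend, array weights, a replicate block, voom on the reads and leaving out each library. The tests were checked on simulated data. Promoters are RefSeq's and positions GENCODE M21's. Python 3.11.15, pandas 2.3.3, numpy 2.4.6, scipy 1.17.1 and matplotlib 3.10.9 were used.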

Additional observations from a re-analysis of the deposited data

How the results depend on the processing

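With 0 members called higher and 0 lower, counts stayed at 0 except that 1 member, Cdkn1a, was called higher with array weights and without WT replicate 2 (range 0 to 1 over the fits without 1 library). Over all genes, the 3 called higher became 6 with a pseudocount of 5, 0 with no filter, 544 with array weights (and 68 lower, against 0), 11 with the replicate block and 5 with voom on recovered reads, and ran from 0 to 500 higher and 0 to 38 lower without 1 library; WT replicates 1 and 3 each gave 0 and WT replicate 2 gave 500. The 132 other pathway genes had 0 calls in each setting. The replicate block changed no call of a member. Same-numbered libraries deviated from their group means with correlations of -0.208, -0.376 and 0.273, and other pairs with correlations of -0.362 to 0.47. With 3 libraries per group, these values cannot tell whether same-numbered libraries share a culture or a batch. The licensing median of -0.13 was -0.11 with a pseudocount of 5 and with no filter, -0.15 at the 5 FPKM filter, -0.07 under median-of-ratios scaling, -0.16 rescaled to a common total, -0.08 with array weights and -0.17 to -0.08 without 1 library. At the 5 FPKM filter, which left fewer genes, the G1 to S median was -0.24 and the CDK inhibitor median 0.47. Ccnb2 (-0.03) turned to 0.08 with array weights and ran from -0.14 to 0.04 without 1 library, and Ccnd3 (0.04) ran from -0.07, without WT replicate 3, to 0.16; the cause was not tested. For the 16 members named with values in every library, 260 of the other log2 fold changes kept direction and side of the threshold, and 2, both of Cdkn1a, passed it. The 12 members under the filter held 1 to 426 reads per library, and the size of difference detectable there was not measured.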
